A study of Mus musculus with 2 samples.

Results

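Csmd1, Csmd2 and Csmd3 are the 3 mouse genes of the CUB and sushi multiple domains family, and they were described here for where H3K9me2 peaks fell on them in embryonic cortex. They are 3 of the 21523 protein-coding genes on chromosomes 1 to 19 and X in the gene table used. Their peaks were the rows of each deposited peak list that overlapped the RefSeq gene body extended by 2 kb on both sides, which gave 12 of 6253 peaks in the transgenic list and 0 of 743 in the wild-type list. The genes were chosen by their peak counts in these lists, Csmd1 for its 8 transgenic and 0 wild-type peaks, with its 2 relatives added to complete the family. The counts below are therefore a description, and no test was run on them. Their intervals show the size of the counting error, make no allowance for that choice and are not tests.

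The series compared TBC1D3-transgenic cortex (TG) with wildtype cortex (WT), both of C57BL/6 embryos at embryonic day 15.5, each by chromatin immunoprecipitation of H3K9me2 and sequencing. TBC1D3 is a hominoid gene carried in these mice as a transgene, and the series title links it to the H3K9 methyltransferase G9a and to neural progenitors. The promoter of the transgene and the number of embryos behind a library are not given in the sources used here. Each genotype had 1 library, so no difference between genotypes has a replicate check and every interval covers counting error alone. The tissue label could not be checked against marker genes, since peak lists hold no expression.

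H3K9me2 is a histone mark of repressed chromatin that often spreads over broad domains, and G9a is one of the enzymes that place it. The Csmd proteins are very large membrane proteins whose extracellular part alternates CUB domains with sushi domains, which are also called complement control protein repeats. CSMD1 is known as an inhibitor of the complement cascade and is strongly expressed in the nervous system, and the human gene has been associated with schizophrenia. Mouse Csmd2 has been described at synapses, and mouse Csmd3 in dendrite development.

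The libraries differed in depth and in the way peaks were called, and this bears on each count below. The TG call rested on 20697113 ChIP tags extended to 111 bp and the WT call on 26735120 ChIP tags extended to 57 bp. The TG list was 8.42 times as long as the WT list. A typical peak in either list stood on 6 fragments (median), and the lowest q listed was 0.0673 in TG and 0.136 in WT. The difference in counts at any gene therefore cannot be told apart from the length of the lists and the settings of the calls. Peaks were also short, with a median width of 115 bp in TG and 57 bp in WT. In TG 46.6% of peaks, and in WT 52.5%, were exactly as long as the extension. Calls this short do not show where a broad domain lies, so a stretch without peaks is not shown to lack the mark.

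All of the 12 Csmd peaks were TG peaks. Csmd1 held 8 TG peaks and 0 WT peaks, Csmd3 held 3 TG peaks and 0 WT peaks, and Csmd2 held 1 TG peak and 0 WT peaks. Over all protein-coding genes, 5.69% held at least 1 TG peak and 0.911% at least 1 WT peak. Coding genes in general are short, with a median body length of 17.4 kb. Among 216 autosomal coding genes of at least 500 kb, 87% held a TG peak and 25.5% held a WT peak. For genes of this length, holding a TG peak and lacking a WT peak was the common case: 134 of the 216 did both. A deposited −log10 p of at least 5 was reached by 4 TG peaks in Csmd1, 0 in Csmd2 and 1 in Csmd3. In the TG list 2036 of 6253 peaks reached that level.

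The WT list is short, so few peaks would lie in these genes at its mean density. The WT density of the rest of each chromosome gives 0.634 peaks in Csmd1, 0.18 in Csmd2 and 0.525 in Csmd3, and 1.34 in all. By the limit of 3 counts, a count of 0 allows up to 3 peaks in each gene, which is 1.82 WT peaks per Mb in Csmd1, 5.13 in Csmd2 and 2.47 in Csmd3. The exact Poisson interval, used for the error bars, is wider and reaches 3.69 peaks. Set against the lengths of the lists, 12 TG peaks would go with 1.43 WT peaks. WT peaks made up 0% of the family's 12 peaks (exact 95% binomial interval 0 to 26.5%) and 10.6% of all peaks. Since 0 WT peaks was part of the choice of Csmd1, nothing is read from these values about a lack of WT peaks.

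Csmd1 is the longest of the 3 genes, at chromosome 8, 15892538 to 17535385 (mm10, gene ID 94109), a body of 1643 kb. With 2 kb on each side it held 4.86 TG peaks per Mb (exact Poisson 95% interval 2.10 to 9.57), where the rest of chromosome 8 held 2.73 per Mb. Of the 216 long genes, 49.1% had a TG density above that of their chromosome, and so did Csmd1 but not Csmd2 or Csmd3. Csmd1 had 8 peaks where 4.49 would lie at the density of the chromosome, a ratio of 1.78 (0.769 to 3.51). The ratio was 3.21 (1.39 to 6.33) when the other coding genes of chromosome 8 were taken as the background and 1.58 (0.683 to 3.12) against coding genes of at least 500 kb. Csmd1 was picked for a high count, which these values share.

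Csmd3 lies at chromosome 15, 47580638 to 48792558 (gene ID 239420), with a body of 1212 kb. It held 2.47 TG peaks per Mb (0.509 to 7.21), close to the 2.62 per Mb of the rest of chromosome 15. Its 3 peaks stand against 3.18 at that density, a ratio of 0.942 (0.194 to 2.75).

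Csmd2 lies at chromosome 4, 127986505 to 128567660 (gene ID 329942), and is the shortest at 581 kb. Its single TG peak gives 1.71 per Mb (0.0433 to 9.52), against 2.08 per Mb for the rest of chromosome 4. The ratio was 0.821 (0.0208 to 4.57).

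Per Mb of gene the order in the TG library was thus Csmd1, Csmd3, Csmd2. With so few peaks the ratios between the genes have wide intervals. Csmd1 held 1.97 times the TG density of Csmd3 (exact interval 0.473 to 11.5) and 2.84 times that of Csmd2 (0.381 to 126). Csmd3 held 1.44 times that of Csmd2 (0.116 to 75.8). Together the 3 genes held 3.48 TG peaks per Mb (1.80 to 6.08), which is 12 peaks where the densities of their chromosomes give 8.89, a ratio of 1.35 (0.697 to 2.36). Against the other coding genes of those chromosomes the ratio was 2.16 (1.12 to 3.78), and against coding genes of at least 500 kb it was 1.13 (0.583 to 1.97). Of the 12 peaks, 8 are those for which Csmd1 was chosen, so the family ratios share that choice. The ratios to the chromosome were 0.942 in Csmd3 and 0.821 in Csmd2.

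**Figure D1:**
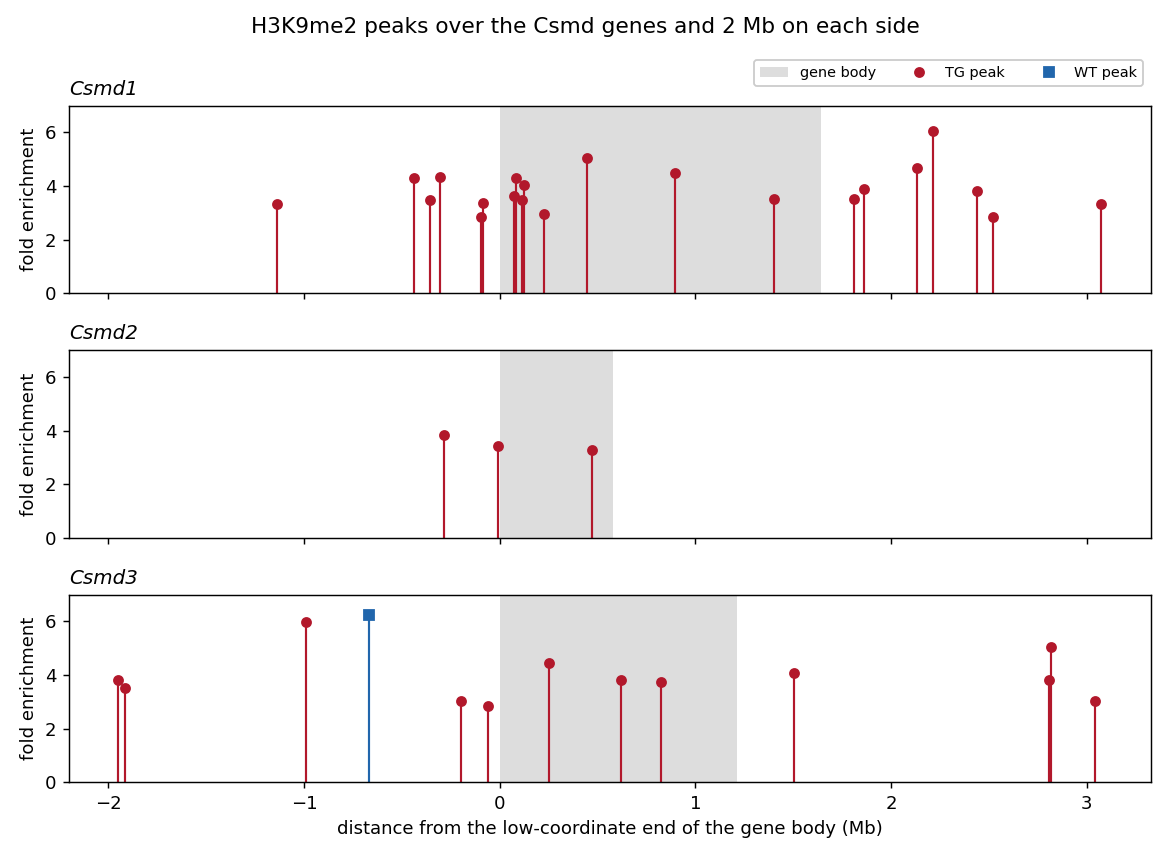
Each stem is 1 deposited H3K9me2 peak, with its fold enrichment on the vertical axis and its distance in Mb from the low-coordinate end of the gene body on the horizontal axis; grey marks the gene body, red circles TG peaks and the blue square the WT peak. Of the 8 TG peaks of Csmd1, 5 gather at its low-coordinate end and 3 lie farther along, the 3 of Csmd3 are spread out, Csmd2 has 1, and the one WT peak in these windows lies outside Csmd3.

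The 8 peaks of Csmd1 were unevenly placed along the gene. The first 4 began at 15964160, 15975444, 16004549 and 16015822 and spanned 51.8 kb, which is 3.15% of the gene. A 5th, at 16117147 to 16117292, followed after a gap of 101 kb. The other 3 began at 16337691, 16785988 and 17291816, with gaps of 220, 448 and 506 kb before them. Cut into 3 equal parts from low to high coordinates, the gene held 6, 1 and 1 peaks. The gene table gives no strand or exons, so which end of the gene this is, and whether a peak lay in an exon or an intron, was not analysed here.

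Such a close run of TG peaks was uncommon but not confined to Csmd1. On chromosomes 1 to 19 and X, 22 separate places held a run of 4 TG peaks within 51.8 kb. The Csmd1 run, which set that span, is among them, and runs that shared a peak were joined into a single place. These places took in 97 peaks, or 1.55% of the TG list. The median gap between neighbouring TG peaks was 219 kb. Gaps of 11.2 and 11.1 kb occurred in the Csmd1 run, and 6.24% of all TG gaps were 12 kb or shorter. The run was singled out after its positions were seen.

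Csmd3 showed no such run. Its peaks began at 47833035, 48199113 and 48407375, with gaps of 366 and 208 kb, and each of 3 equal parts of the gene held 1. The Csmd2 peak, at 128456986 to 128457148, lay 81% of the way from the low-coordinate to the high-coordinate end.

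All 12 peaks lay inside a gene body, and the nearest to an edge was 71.6 kb in, at the low end of Csmd1. Just outside the 2 kb limit, the closest TG peak to Csmd2 lay 8.31 kb below its body, at 127978083 to 127978193, inside the neighbouring coding gene CK137956, which overlaps the end of Csmd2. With a 10 kb extension Csmd2 would count 2 peaks. The closest excluded TG peaks lay 84.9 kb from Csmd1 and 59.0 kb from Csmd3.

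Other annotated genes sit inside the Csmd bodies, and 1 of the 12 peaks fell on one of them. The Csmd1 peak at 17291816 to 17291926 lay within the noncoding RNA gene Gm39136 (17285386 to 17293135). In all 7 genes overlapped Csmd1, among them the microRNA gene Mir3106 and the coding gene C030002A05Rik, 5 overlapped Csmd2, among them Hmgb4 and the antisense gene Csmd2os, and 4 pseudogenes and small RNA genes overlapped Csmd3. Mir3106 lay 51.5 kb from the nearest TG peak. The next coding genes outside Csmd1, Myom2 at 759 kb and Mcph1 at 1060 kb, held 0 TG and 0 WT peaks, Mcph1 being a gene of brain size control. The genes next to Csmd3 were Kcnv1 (1 TG peak, 0 WT peaks) at 2465 kb and Trps1 (0 and 0) at 1862 kb.

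The surroundings of the 3 genes differed in gene content. In the 2 Mb on each side there was 1 coding gene around Csmd3 (0.25 per Mb), 28 around Csmd1 (7 per Mb) and 83 around Csmd2 (20.8 per Mb), where the autosomes averaged 8.56 per Mb. TG peaks in these flanks numbered 9 around Csmd3 (2.25 per Mb), 13 around Csmd1 (3.25 per Mb) and 2 around Csmd2 (0.5 per Mb). WT peaks numbered 1, 0 and 0. The gene bodies held 1.49 times the TG density of their flanks in Csmd1 (exact interval 0.537 to 3.89), 1.10 times in Csmd3 (0.191 to 4.39) and 3.42 times in Csmd2 (0.0579 to 65.7). The counts are too few to place a gene's TG density closely beside that of the sequence around it.

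**Figure D2:**
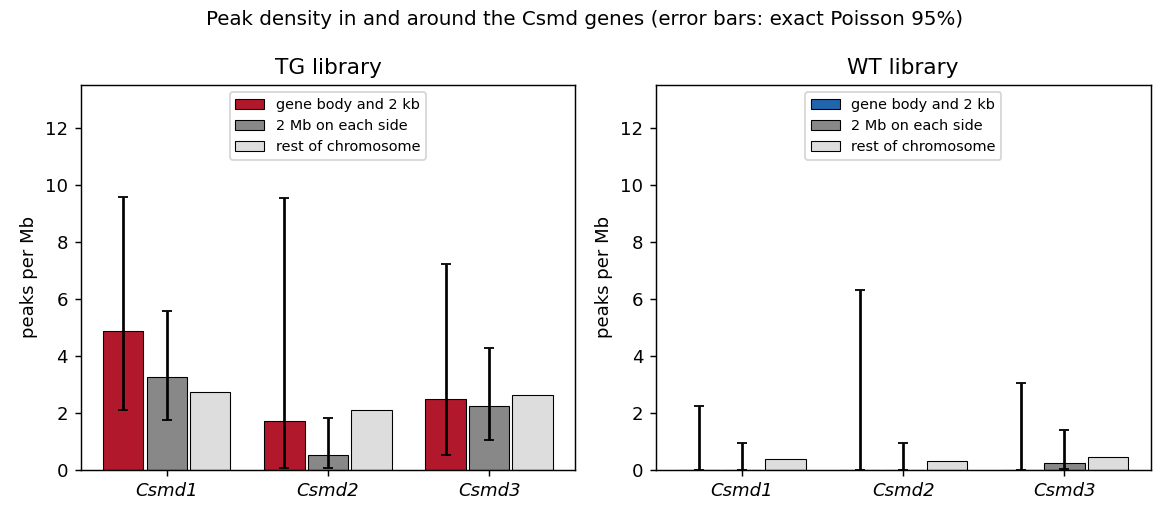
Bars give peaks per Mb in the TG library (left) and the WT library (right) for each gene body with 2 kb, for the 2 Mb on each side and for the rest of the chromosome; error bars are exact Poisson 95% intervals of gene and flank counts. In TG the Csmd1 bar stands at 4.86 against 3.25 in its flanks, with wide and overlapping intervals, and in WT all 3 gene bars are at 0.

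The WT list left a long stretch without peaks around each gene, which does not show that the mark was absent there. The WT peaks on either side of Csmd1 lay 2025 kb below and 5511 kb above it, so that 9.18 Mb held 0 WT peaks and 21 TG peaks. Around Csmd2 the stretch was 14.6 Mb with 9 TG peaks, and around Csmd3 it was 6.01 Mb with 18 TG peaks. The median gap between neighbouring WT peaks on the autosomes was 1.72 Mb. Gaps at least as long as that around Csmd1 made up 5.81% of 723 such gaps, with 2.9% for Csmd2 and 16.5% for Csmd3, and the longest was 25.0 Mb. A gene falls into long gaps more often than into short ones, so these shares describe the gaps and not the genes. The closest WT peak to any of the 3 genes, at chromosome 15, 46912240 to 46912296, lay 668 kb below Csmd3 and had 9 fragments and a fold of 6.25. The shortest distance from a Csmd peak to a WT peak was 921 kb.

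By fold, the Csmd peaks were neither the weakest nor the strongest of the TG list, whose folds ran from 2.53 to 6.52 and whose fragments ran from 5 to 22. They rested on 5 to 9 fragments over the summit (median 6.5) and 82 fragments in all, over a local background of 0.876 to 1.13 fragments. Their widths were 111 to 163 bp, and 7 of the 12 were exactly as long as the 111 bp extension. The deposited fold enrichment, the authors' value per peak, had a median of 3.77 (range 2.94 to 5.03), against 3.62 in the TG list, and 8 of the 12 lay above that list's median. A deposited q of 0.1 or less was listed for 4 of the 12, or 33.3% (exact 95% interval 9.92 to 65.1%), and for 23.1% of the TG list. The lowest q of a Csmd peak, 0.0673, was also the lowest of the TG list. The peak that had it ranked 144th of 6253 by −log10 p, so this q does not mark it as the strongest of the list.

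The strongest was the 6th peak of Csmd1, at 16337691 to 16337801, with 9 fragments, a fold of 5.03 and a q of 0.0673. It ranked 129th of 6253 by fold and was the one Csmd peak with a fold of at least 5, a level that 2.65% of TG peaks reached. The next in Csmd1 had 8 fragments each, the peak at 16785988 with a fold of 4.48 and that at 15975444 with a fold of 4.29. The weakest was also in Csmd1, at 16117147, with 5 fragments, a fold of 2.94 and a q of 0.363.

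Within the close run of 4 in Csmd1 the folds were 3.65, 4.29, 3.47 and 4.03, from 6, 8, 6 and 7 fragments. The highest of these ranked 1027th of 6253 by fold. In Csmd3 the folds were 4.46, 3.82 and 3.73 from 8, 7 and 6 fragments. The Csmd2 peak had 6 fragments and a fold of 3.29, in the lowest 24.7% of the TG list.

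**Figure D3:**
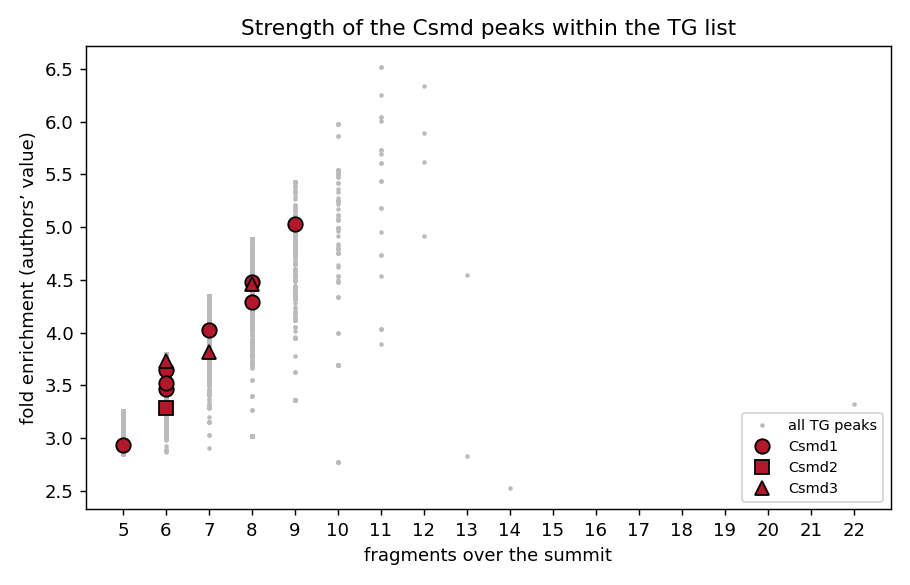
Each grey point is 1 TG peak, with the fragments over its summit on the horizontal axis and the authors' fold enrichment on the vertical axis; red markers are the 12 Csmd peaks by gene. They sit between 5 and 9 fragments and between folds of 2.94 and 5.03, inside the cloud of the whole list.

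The 3 genes are among the longest coding genes, and a longer gene has more room for peaks. Csmd1 ranks 7th in length among the 216 autosomal coding genes of at least 500 kb, Csmd3 27th and Csmd2 157th. By number of TG peaks Csmd1 was 7th, level with Gpc5, a glypican. Csmd3 ranked 57th and shared its 3 peaks with 30 other genes. By TG peaks per Mb Csmd1 ranked 43rd, with Csmd3 at 107 and Csmd2 at 148. The median of the 216 genes was 2.40 TG peaks per Mb (quartiles 1.39 and 4.25), so that Csmd1 lay above the upper quartile, Csmd3 near the median and Csmd2 between the lower quartile and the median. Of the 8 genes with 8 or more TG peaks, 2 held 0 WT peaks, Csmd1 and Gpc5.

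Genes of like length gave a similar picture. Among the 6 longer and 10 shorter autosomal coding genes next to Csmd1 in length (1433 to 2271 kb), the median was 5 TG peaks (range 0 to 12), and 1 gene, Fhit, had more than the 8 of Csmd1. Fhit is a known site of chromosome fragility, and it held 12 TG peaks and 3 WT peaks. Of these 16 genes, 10 held 0 WT peaks, as Csmd1 did. The 20 genes next to Csmd3 had a median of 3 TG peaks (range 1 to 14), the number in Csmd3, and 13 of them held 0 WT peaks. The 20 next to Csmd2 had a median of 1 TG peak (range 0 to 5), the number in Csmd2, and 16 held 0 WT peaks.

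**Figure D4:**
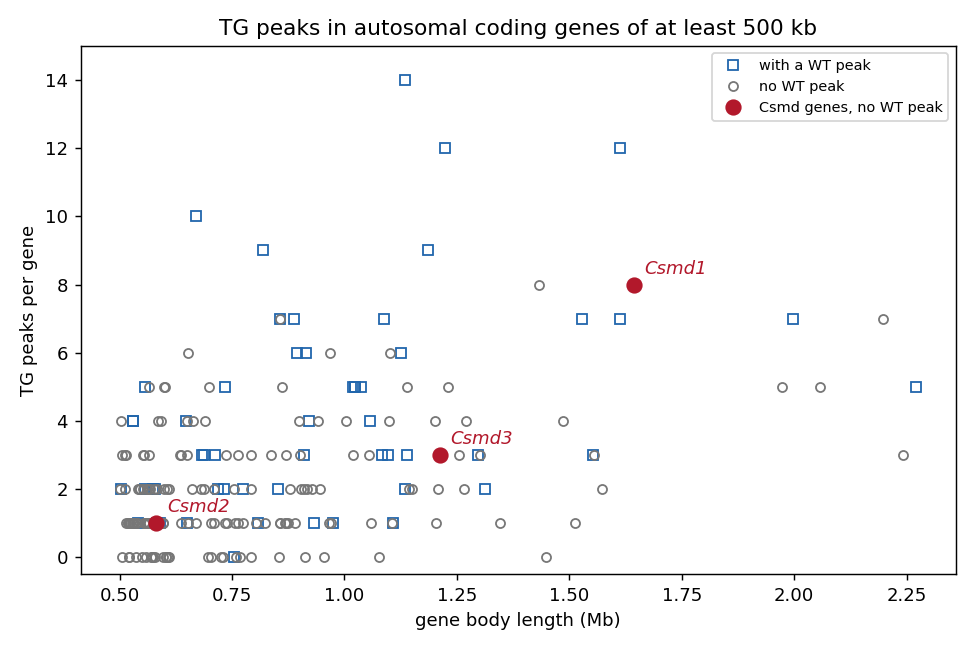
Each point is 1 of the 216 autosomal coding genes of at least 500 kb, with its body length in Mb on the horizontal axis and its number of TG peaks on the vertical axis; blue squares hold a WT peak, grey circles do not, and red circles are the Csmd genes. Csmd1 is high with 8 peaks at its length, while Csmd3 and Csmd2 sit amid genes of their own length.

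The coding genes of at least 500 kb whose pattern was most like that of each member were taken as those with the same WT number, 0, and the nearest TG density, over 160 candidates and 2 libraries. For Csmd1 they were Grip1 with 4.70 TG peaks per Mb, a synaptic scaffold, Lama2 with 4.69, a laminin chain, and Tmem132d with 4.59, each from 3 peaks. For Csmd3 they were Lrp1b with 2.42, a receptor of the LDL receptor family, Inpp4b with 2.51, a lipid phosphatase, and Dlg2 with 2.53, a postsynaptic scaffold. For Csmd2 they were Cadps2 with 1.72, a protein of vesicle release, Slit3 with 1.69, an axon guidance ligand, and Cdh12 with 1.73, a cadherin.

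Other genes with sushi or CUB domains held peaks in small numbers. Of 72 such genes, 6 held a TG peak (8.33%) and 2 a WT peak (2.78%), beside the 5.69% and 0.911% of all coding genes. They are much shorter than the Csmd genes, with a median of 48.4 kb and none of 500 kb or more. Coding genes in general are shorter still, with a median of 17.4 kb, so these shares are not matched for length. Cubn, an endocytic receptor built of CUB domains, held 2 TG peaks and 0 WT peaks. Dmbt1, a mucosal scavenger receptor protein, held 2 TG and 2 WT peaks. Il2ra, an interleukin-2 receptor chain, Pappa, a secreted protease, and Adgrg6, an adhesion receptor, held 1 TG and 0 WT peaks each. Pappa2, a protease related to Pappa, held 0 TG peaks and 1 WT peak. Sez6, Sez6l and Sez6l2, which are neuronal membrane proteins with both domain kinds, held 0 in both libraries. The TG density was 3.48 peaks per Mb in the Csmd genes, from 12 peaks, and 1.65 over the list, from 9. Of those 12 peaks, 8 are the ones for which Csmd1 was chosen, so no difference is read from these densities.

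Neuronal adhesion gene families, many of whose members are also long, are given beside the Csmd genes. The Csmd genes held 3.48 TG peaks per Mb from 12 peaks, the 5 IgLON genes 5.30 per Mb from 27, and the 10 neurexin and contactin-associated protein genes 2.55 per Mb from 20. Bodies of at least 500 kb belong to 3 of 3 Csmd genes, 4 of the 5 IgLON genes and 6 of the 10 others. Single genes carry much of these sums, since Csmd1 held 8 of the 12 Csmd peaks and Opcml 14 of the 27 IgLON peaks, so no order of the families is drawn from them. WT peaks numbered 0 in the Csmd genes, against 3 in the IgLON genes and 3 in the neurexin and contactin-associated protein genes. The Csmd genes have the smallest total length of the 3 sets, 3.45 Mb against 5.09 and 7.83 Mb. No difference between these sets was tested.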

How the data were processed

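H3K9me2 was profiled by ChIP-seq in 1 TG and 1 WT cortex library. MACS version 2.1.0.20150420 was run by the authors on each ChIP library with its own input (p cutoff 0.001, no shift model, summits called), per the file headers. The submitters' processing notes name BWA and mm10. The pileup signal deposited for a peak is its height in extended fragments, with the deeper of ChIP and input scaled down, per the file headers; divided by that scale it gave whole fragments within 0.02 for 100% of peaks. The deposited fold is pileup plus 1 over local background plus 1, which gave the background back. The deposited −log10 p and −log10 q were used as listed, although the headers call q not calculated.

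Genes came from a RefSeq table of GRCm38.p6, the assembly behind mm10, which gives no strand or exons. Genes starting below 3 Mb were left out. A chromosome was taken to run from 3 Mb to its last gene end. Overlap needed 1 bp. Peaks per Mb used the extended body, and the density of a chromosome excluded the gene. Intervals are exact (Poisson, or Clopper-Pearson binomial) at 95%. Those of ratios to a chromosome or gene-set density treat that density as fixed. Those of ratios between 2 genes, or between a gene and its flanks, are conditional binomial on the 2 counts. The counting was tested on simulated peaks. Python 3.11.15, pandas 2.3.3 and scipy 1.17.1 were used.

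The members and lists were chosen with earlier results of these data known. Named genes were the members, list genes holding a peak, the 3 long coding genes most alike, and neighbours; noncoding genes inside a member, Fhit, Gpc5, Opcml and the Sez6 genes were named after their values were seen. A further list gene with peaks is counted but not reported here by name. Of the 42 complement cascade genes listed, 41 were in the table. Alternatives were stricter lists, a shortened TG list, merging, other extensions and other background densities. Protein likeness, part of the design, was not analysed here.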

Additional observations from a re-analysis of the deposited data

How the results depend on the processing

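With 1 library per genotype no library could be left out. No paired analysis was possible because each genotype had 1 library. Of 64 TG values under alternatives, 44 stayed within 1.5 times the reported count or inside the reported interval and 20 did not; those 20 came from stricter lists or, for 1, from a wider gene window, and both follow from how the alternative is built. A WT count of 0 could change only with a wider gene window, and it stayed 0 in all 3 genes with a 10 kb extension. At a fold of at least 5, TG peaks numbered 1 in Csmd1, 0 in Csmd2 and 0 in Csmd3, 1 in all. The ratio to the chromosome density was 12.6 (interval 0.319 to 70.3) in Csmd1 and 4.04 (0.102 to 22.5) in all. It was 0 in Csmd2 (0 to 80.3) and 0 in Csmd3 (0 to 30.2). At a −log10 p of at least 5 they numbered 4 in Csmd1, 0 in Csmd2 (ratio 0, interval 0 to 8.45) and 1 in Csmd3. That is 5 in all, from a TG list of 2036 peaks at this level. With the TG list shortened to 743 peaks they numbered 2 in Csmd1, 0 in Csmd2 and 0 in Csmd3, 2 in all. The ratio was then 0 in Csmd2 (interval 0 to 17.5) and 0 in Csmd3 (0 to 8.40). A 10 kb extension gave 2 peaks in Csmd2. Over all alternatives that left Csmd1 at least 1 peak, its density ratio ran from 1.49 to 12.6, which is no support for a high density, since Csmd1 was chosen for its count. Peaks of 5 to 9 fragments in 1 library limit what any of these counts can show.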

Other observations

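The complement cascade, which CSMD1 is known to restrain, was looked at as a list of its own. Of 41 genes of complement components, regulators and receptors, 2 held a TG peak (4.88%) and 1 held a WT peak (2.44%), beside 5.69% and 0.911% of all coding genes. Itgam, a subunit of complement receptor 3 on microglia and other myeloid cells, held 2 TG peaks and 1 WT peak in a body of 55.9 kb. C9, a component of the membrane attack complex, held 1 TG peak and 0 WT peaks. With so few genes hit, the list cannot be set apart from coding genes in general.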
